A study of Homo sapiens with 2 samples.

Results

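Heterogeneous nuclear ribonucleoproteins (hnRNPs) and SR proteins are the main families of general splicing regulators, and the footprints of ribosomes on their mRNAs were described in 2 libraries of HEK293T cells. The members were chosen by name. They are the 35 protein-coding rows whose gene symbol is that of an hnRNP gene (24 genes, with PTBP1, PCBP1, PCBP2 and SYNCRIP counted among them) or of a serine and arginine rich splicing factor, SRSF1 to SRSF11 (11 genes). All 35 were found among the 19994 protein-coding rows of a table of 61554 rows, and every one had counts in both libraries. HEK293T is a human embryonic kidney line that takes up plasmids readily. Both cultures were labelled WT in genotype and were transiently transfected with a plasmid whose name begins with pCMV-Nes--chPylRSIPYE (TetRS) and ends with TetRS-12*(U6-CM15CGA). Both also received TetBu, a compound given in the labels by that name alone. The library with the reporter, RiboW, came from cells that additionally received pEGFP-mCherry-T2A-EGFP-151TCG. The library without the reporter, RiboWo, came from cells that did not. Expression ran for 30 h, and the last 1 min was spent in cycloheximide, which halts cytosolic ribosomes. The sources used here do not give the share of cells that took up either plasmid. There was 1 library per group, so no test across replicates was possible and each difference below is one between these 2 libraries.

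hnRNPs coat nascent transcripts, and many of them repress the use of splice sites or exons. SR proteins bind exonic enhancers through RNA recognition motifs (RRMs) and recruit the spliceosome through a domain of arginine and serine repeats, which SRPK and CLK kinases phosphorylate. Members of both families often regulate their own mRNAs, by including a poison exon or splicing in the 3′ region so that the mRNA is degraded.

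The library with the reporter held 2519301 counts and the one without it 3151403. Of these, 346240 and 307768 lay on protein-coding genes, which is 13.7% and 9.77%. The reporter row had 271843 counts against 399, in the direction of the labels, and TetRS had 30286 against 59723. Markers of other cell types were scarce: fibroblast genes summed to 40 and 64 counts, leukocyte genes to 5 and 20, erythroid and serum genes to 0 and 16, and epithelial and hepatocyte genes to 7 and 14. Of the leukocyte markers, PTPRC and CD3E were at 0 in both libraries, and the 20 counts without the reporter were those of CORO1A (1 and 14) and LCP1 (0 and 6). Of the fibroblast markers, ACTA2 (23 and 9) and LUM (2 and 0) had more counts with the reporter. COL1A1 (6 and 13), COL1A2 (4 and 21), COL3A1 (4 and 19) and DCN (1 and 2) had fewer. The neuronal genes that HEK293 cells are known to express (NEFL, NEFM, INA) summed to 165 and 106. NEFL had 106 and 49 of these, NEFM 56 and 50, and INA 3 and 7. The part of these differences, and of TetRS, in the results below was not tested.

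The 35 genes took 1.04% of coding counts with the reporter, which is 3614 counts, and 0.997% without it, or 3068. For each gene, the log2 ratio of counts with the reporter over without it was taken relative to the median of 1060 coding genes that had a summed count of at least 100. That zero, called the coding median below, does not depend on how the libraries are scaled. The interval in brackets is the exact Clopper-Pearson interval at 95%. It covers counting error only, and PCR copies of reads, which are not independent molecules, could make it too narrow even for that. Footprint counts change with the amount of an mRNA, with its translation and with the share of cells that express it, and these could not be told apart without an RNA library and in bulk cultures.

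**Figure D1:**
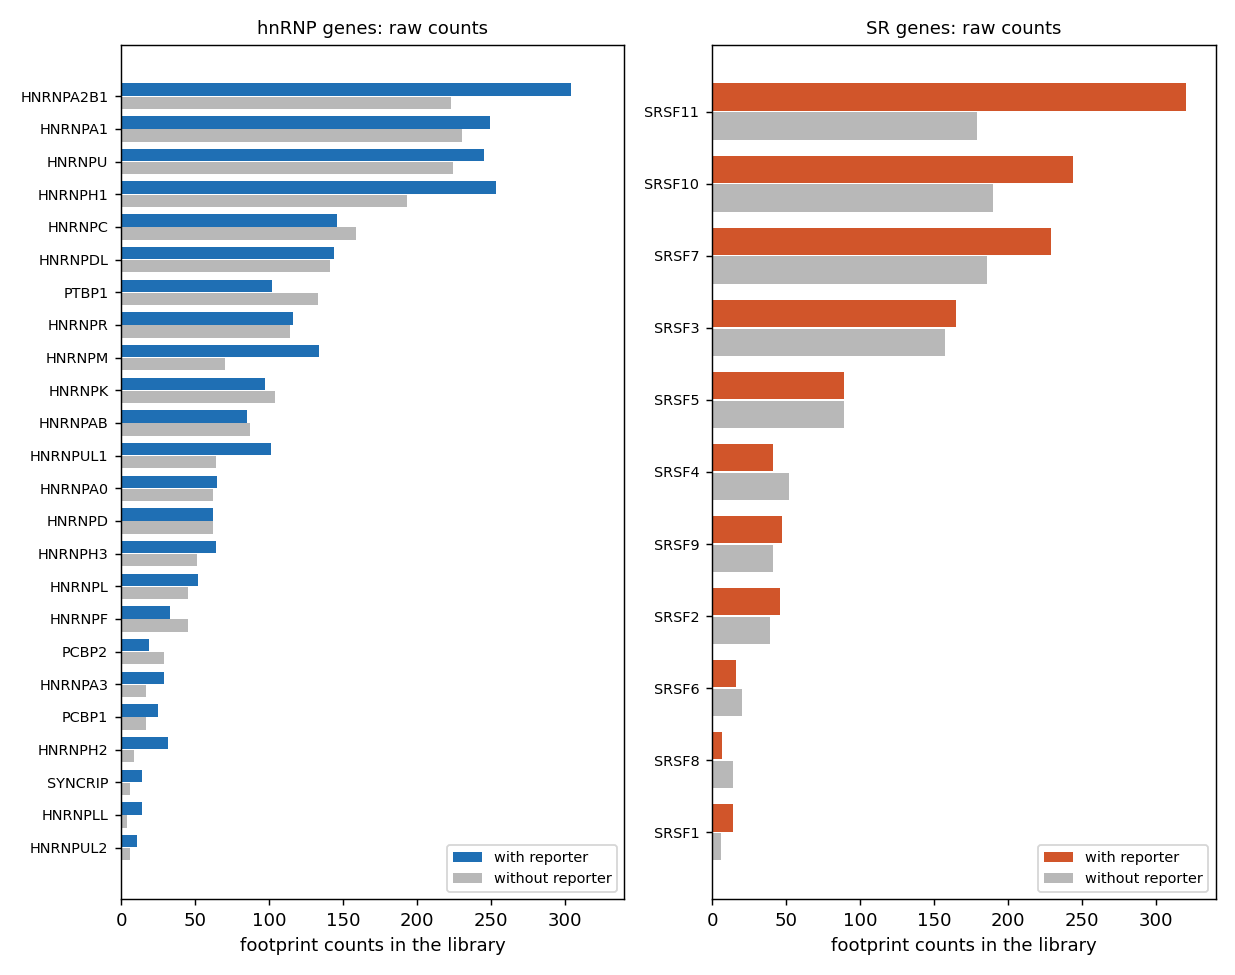
Raw footprint counts of the 24 hnRNP genes (left) and the 11 SR genes (right), with a coloured bar for the library with the reporter above a grey bar for the one without it. Counts run from 304 for HNRNPA2B1 and 320 for SRSF11 with the reporter down to 4 for HNRNPLL without it.

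Per listed length, SRSF7 had the highest deposited RPKM of both families in both libraries. SRSF7 is an SR protein that also serves as an adaptor in mRNA export. Its deposited RPKM was 19.7 with the reporter (counting interval 17.2 to 22.4) and 16.6 without it (14.3 to 19.2). HNRNPAB, an A/B-type RNA-binding protein, followed at 14.0 and 14.9 RPKM. HNRNPA1, the best studied exon-skipping hnRNP, had 12.9 and 12.4 RPKM. These genes kept their place near the top in both libraries. SRSF11 had 13.1 RPKM and rank 3 with the reporter, against 7.65 RPKM and rank 7 without it. HNRNPM had 8.31 RPKM and rank 8, against 4.51 RPKM and rank 17.

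The lowest level was that of SYNCRIP (hnRNP Q) in both libraries, at 0.466 and 0.208 RPKM from 14 and 6 counts. Another protein-coding row overlaps SYNCRIP on its own strand, as described further below, so this level is uncertain. The median level was 4.68 and 3.58 RPKM over the 24 hnRNP genes, and 5.38 and 4.74 RPKM over the 11 SR genes. Over the 1060 coding genes it was 5.97 and 5.30 RPKM. Most steps in the order were within counting error. Of the 34 pairs of neighbours in the order, the intervals were apart for 1 pair with the reporter and for 0 without it. These values use the listed lengths, which are below the genomic span in 32 of the 35 genes. The order and the family medians depend on these lengths, such as 2118 bases for HNRNPAB and 4045 for SRSF7, against 7118 for SRSF3. Levels per base of coding sequence were not computed, and the order by them could differ. HNRNPU, the scaffold-binding hnRNP, is listed with 22512 bases out of a span of 23923, and its 245 and 224 counts came to only 3.79 and 3.60 RPKM.

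**Figure D2:**
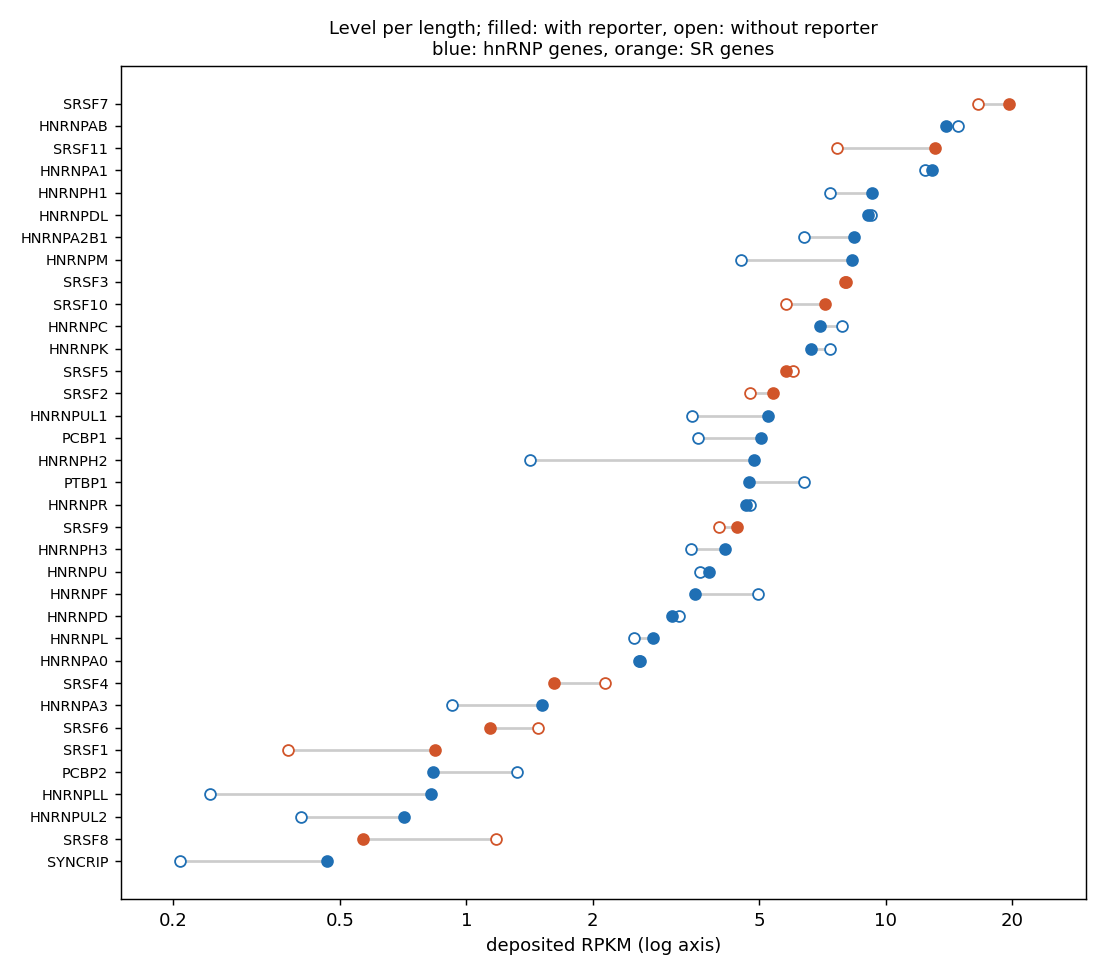
Deposited RPKM of each of the 35 genes on a log axis, ordered by the level with the reporter (filled points), with the level without it as open points. hnRNP genes are blue and SR genes orange. SRSF7 is highest and SYNCRIP lowest in both libraries, and the gaps of HNRNPH2 and HNRNPLL are the widest of the 35 on this axis.

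The start regions of several members held the same short motif, which the choice of genes did not use. RefSeq start sites (GRCh38.p14) were matched for 33 of the 35 genes, 11 of them with several starts. The heptamer GCCATTT, part of the binding motif known for the transcription factor YY1, was noticed in these sequences and then counted. On the strand of the gene, between 20 bases before and 50 bases after an annotated start, it was found in 7 of the 33 genes, which is 21.2%. The same window held it in 0.934% of 27305 genes with an entry and in 4.09% of 880 matched coding genes with at least 100 counts. Over the 300 bases from 250 before to 50 after the start and on either strand, 10 members (30.3%) had it, against 5.39% and 9.55%. By family, near the start, it was in 5 of 23 hnRNP genes and in 2 of 10 SR genes. The motif was picked after the members' sequences were seen, so these shares are a description. Genes with more annotated starts have more chances to hold it. The following stretches of 60 bases, from 30 before to 30 after the start, show the motif in capitals, since it is a feature that genes of both families share. They lie at chr17:58007217-58007276 (SRSF1, minus strand), chr6:36594332-36594391 (SRSF3, plus), chr1:23344255-23344314 (HNRNPR, minus), chr4:82373962-82374021 (HNRNPD, minus), chr5:179623372-179623431 (HNRNPH1, minus, 1 of its starts), chr14:21269413-21269472 (HNRNPC, minus) and chr19:41264342-41264401 (HNRNPUL1, plus, 1 of its starts).
SRSF1: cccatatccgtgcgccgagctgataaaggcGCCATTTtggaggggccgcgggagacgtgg
SRSF3: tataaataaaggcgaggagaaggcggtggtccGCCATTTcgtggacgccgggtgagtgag
HNRNPR: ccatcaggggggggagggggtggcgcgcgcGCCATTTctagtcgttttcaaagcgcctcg
HNRNPD: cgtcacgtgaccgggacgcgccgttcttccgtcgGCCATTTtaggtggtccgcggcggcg
HNRNPH1: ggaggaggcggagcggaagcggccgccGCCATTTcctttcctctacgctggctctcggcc
HNRNPC: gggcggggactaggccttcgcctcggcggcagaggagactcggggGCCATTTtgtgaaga
HNRNPUL1: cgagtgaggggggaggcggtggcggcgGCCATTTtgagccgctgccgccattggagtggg

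Counted from the annotated start, the first base of the motif lay between -3 and 16 in these stretches, and exactly at the start in SRSF1 and HNRNPR. The log2 ratios of these 7 genes had both signs, from -0.37 for HNRNPC to 0.41 for HNRNPUL1 among the 6 with at least 100 counts. HNRNPD and HNRNPDL also lie next to each other, 48.1 kb apart on chromosome 4 and on the same strand. HNRNPLL and SRSF7 are 140.0 kb apart on chromosome 2. HNRNPD and HNRNPDL had close ratios, at -0.24 and -0.21, while HNRNPLL, with a summed count of 18, and SRSF7 were at 1.56 and 0.06.

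As whole families, the hnRNP and the SR genes both had pooled ratios within counting error of the coding median. The 24 hnRNP genes summed to 2396 counts with and 2095 without the reporter, a pooled log2 ratio of -0.05 (-0.14 to 0.03). The 11 SR genes summed to 1218 and 973 counts, or 0.08 (-0.04 to 0.20). Both intervals include the coding median, which is a median over single genes. Summed in the same way, the 1060 coding genes were at -0.046 (-0.055 to -0.036). That value lies inside the hnRNP interval and just below the lower end of the SR interval, -0.043. The hnRNP ratio minus the SR ratio was -0.13, with an exact conditional interval of -0.28 to 0.02 for counting error. Without SRSF11, the most counted SR gene, the difference was 0.02 (-0.15 to 0.18), and the SR genes were at -0.07 (-0.21 to 0.07). Leaving out any other single gene kept the difference between -0.17 and -0.10.

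A summed count of 100 was reached by 15 hnRNP and 5 SR genes, and the other 15 members are given further below. The median log2 ratio was -0.18 over the 15 hnRNP genes, with 10 of them below the coding median and 5 above it. It was 0.06 over the 5 SR genes, with 2 below and 3 above. Over all 20 the SD of the log2 ratios was 0.33, against 0.46 over the 1060 coding genes. Not one of the 20 was at least 2-fold from the coding median, where 1.79% of the 1060 coding genes were at least 2-fold higher and 1.32% at least 2-fold lower with an interval that left the median out. The interval lay above the coding median for 2 of the 20, HNRNPM and SRSF11, against 17.8% of coding genes. It lay below for 2, PTBP1 and HNRNPC, against 16.1%. Among the 765 coding genes with 115 to 527 counts, the range of the 20 members, these 4 shares were 1.7%, 1.7%, 18.2% and 16.2%. The members' shares of 2 in 20 were no higher than either background.

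**Figure D3:**
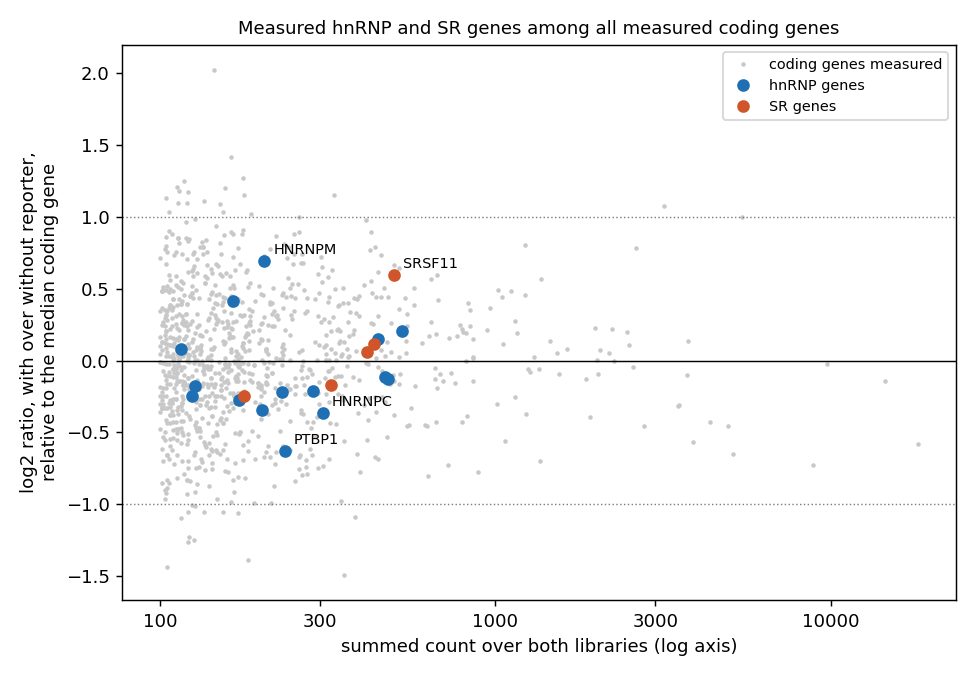
Log2 ratio with over without the reporter, relative to the coding median, against the summed count (log axis) for the 1060 coding genes (grey), the 15 hnRNP genes (blue) and the 5 SR genes (orange) with at least 100 counts. Dotted lines mark 2-fold, and all 20 points lie between them.

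HNRNPM, which regulates alternative exons in epithelial and mesenchymal splicing programmes, had the highest ratio of the 20. It had 134 counts with and 70 without the reporter, a log2 ratio of 0.69 (0.27 to 1.13) or 1.62-fold. The gene lies on chromosome 19 at 8444767 to 8489114, plus strand. SRSF11, an SR-like protein known to associate with U2AF2, had 320 counts against 179, a log2 ratio of 0.59 (0.33 to 0.87) or 1.51-fold. It lies on chromosome 1 at 70205682 to 70253052, plus strand. Of the 1060 coding genes, 92.5% had a lower ratio than HNRNPM and 89.9% a lower one than SRSF11, so that both lay in the upper tail but were exceeded by many genes.

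PTBP1 (hnRNP I) is the polypyrimidine tract binding protein, which represses neuronal exons, among them one of its paralogue PTBP2. It had the lowest ratio of the 20, with 102 counts with and 133 without the reporter (-0.63, -1.01 to -0.24). PTBP2 had 26 counts against 14, with an interval that included the coding median. HNRNPC, which binds uridine tracts and measures transcript length, had 146 counts against 159 (-0.37, -0.70 to -0.03). Its interval came close to the coding median, and 19.4% of coding genes had a lower ratio, against 9.06% for PTBP1.

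**Figure D4:**
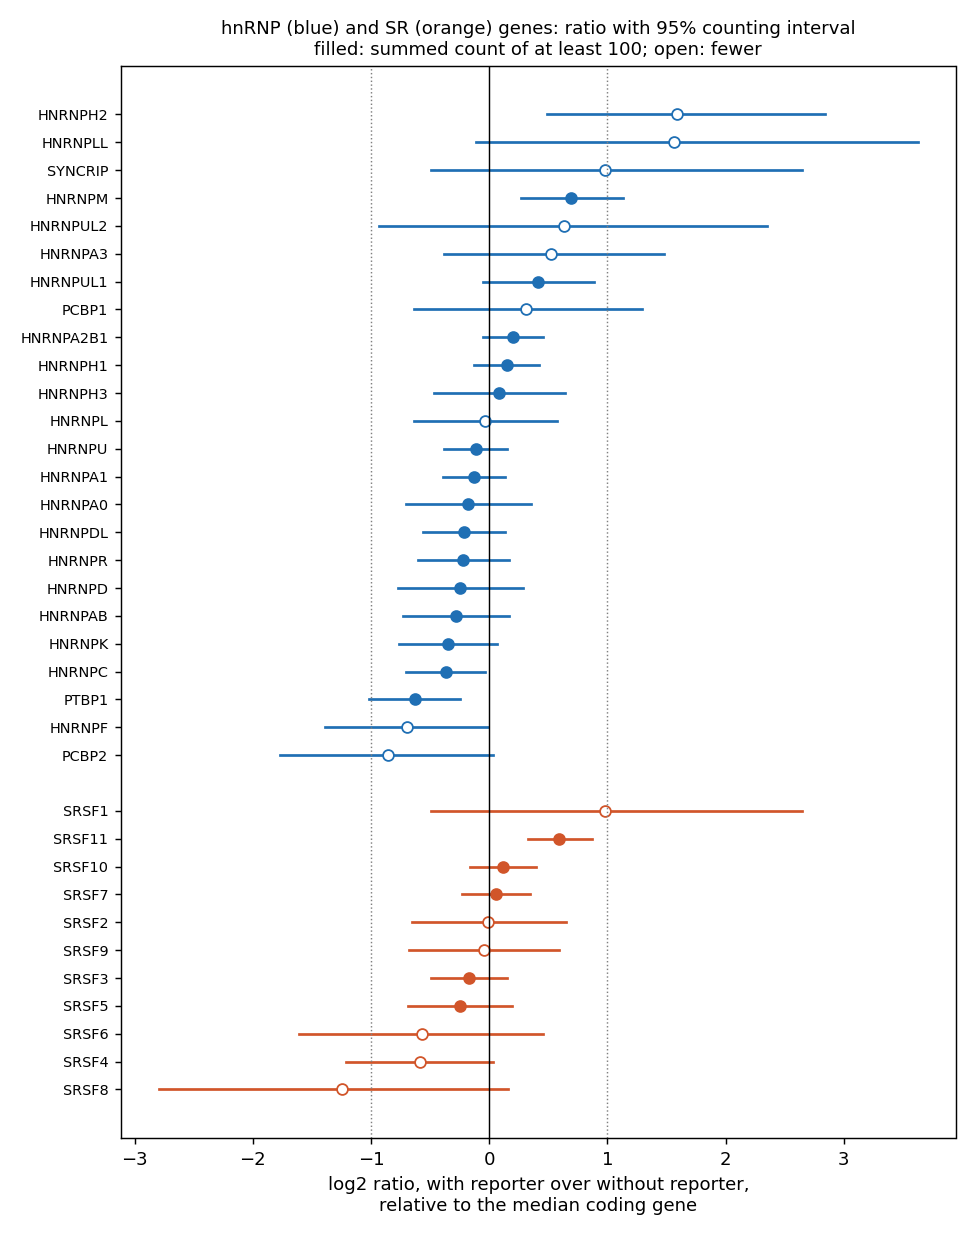
Log2 ratio of each gene with over without the reporter, relative to the coding median (line at 0), with its 95% counting interval; filled points have a summed count of at least 100 and open points fewer. The intervals of HNRNPM, SRSF11 and HNRNPH2 lie above 0, those of PTBP1, HNRNPC and HNRNPF below it, and all others include it.

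Within the hnRNP family, the A/B-type and D-type genes were close to each other. Of 6 with at least 100 counts, 5 lay slightly below the coding median, from -0.28 for HNRNPAB to -0.13 for HNRNPA1, and HNRNPA2B1 was at 0.20. HNRNPA2B1, a reader of RNA sorting signals, had the highest summed count of all members, 527, with 304 counts with and 223 without the reporter. No interval of the 6 was clear of the coding median. Summed over all 7 genes of this type, counts were 938 and 822 (-0.05, -0.19 to 0.08).

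HNRNPA1 had 249 counts with and 230 without the reporter, and it is the member with the most processed copies. The table lists 74 pseudogene rows under its name, which held 29 and 23 counts, or 10.9% of the member's own. Over all members, 138 such rows held 35 and 28 counts, which is 0.943% of the members' counts. Reads shared between HNRNPA1 and these copies make its level uncertain.

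The F/H genes bind guanine-rich tracts and are near-identical in parts of their coding sequence. HNRNPH1 had 253 counts with and 193 without the reporter, and HNRNPH3 had 64 and 51. HNRNPH2 had 32 and 9 counts, a log2 ratio of 1.59 (0.49 to 2.84), while HNRNPF had 33 and 45 (-0.69, -1.39 to -0.01). The pair with few counts thus pointed in opposite directions. Summed over all 4 genes the counts were 382 and 298, a log2 ratio of 0.11 (-0.11 to 0.34). Reads that match both HNRNPH1 and HNRNPH2 could be split between them by the counting, so the value of HNRNPH2 is uncertain.

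Genes with KH domains, which bind cytidine-rich RNA, were HNRNPK, PCBP1 and PCBP2. HNRNPK had 97 counts with and 104 without the reporter (-0.34, -0.76 to 0.07). PCBP1, an intronless gene, had 25 and 17, and PCBP2 had 19 and 29. None of these intervals was clear of the coding median.

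PTBP1, HNRNPL and HNRNPLL, a group of RRM proteins that includes a regulator of lymphocyte CD45 splicing (HNRNPLL), summed to 168 and 182 counts. That is -0.36 (-0.67 to -0.05), the only hnRNP subgroup whose interval left out the coding median. PTBP1 made most of these counts. Without it, HNRNPL and HNRNPLL summed to 66 and 49, a log2 ratio of 0.19 (-0.37 to 0.75). The U-type genes, of which HNRNPU attaches to chromatin and scaffold DNA, summed to 357 and 294 counts (0.04, -0.19 to 0.26). HNRNPUL1, known for a role at DNA breaks, had 101 and 64 (0.41, -0.05 to 0.89). HNRNPR and SYNCRIP, which are close paralogues, summed to 130 and 120 (-0.13, -0.50 to 0.24).

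**Figure D5:**
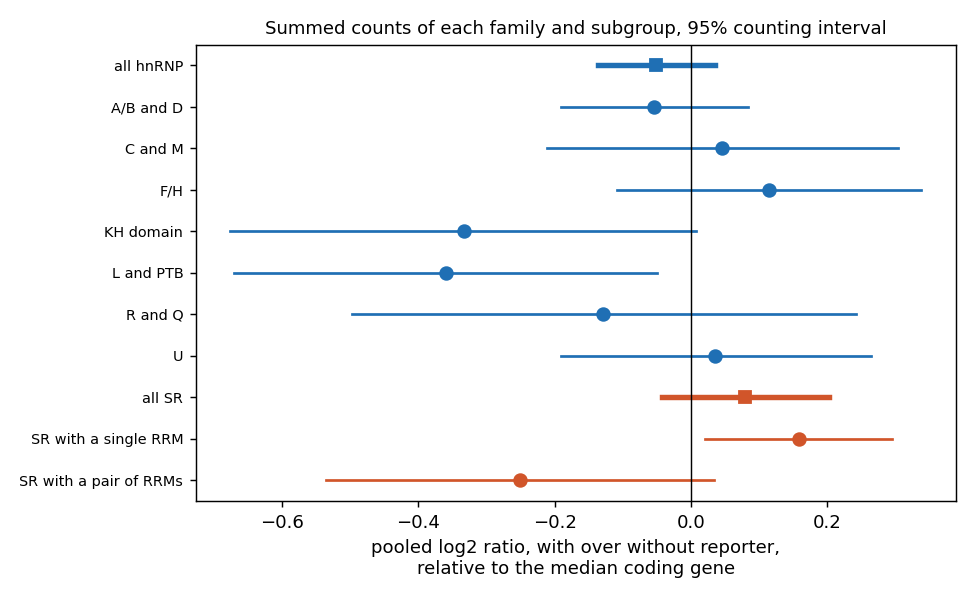
Pooled log2 ratio with over without the reporter, relative to the coding median, for each family (squares) and each subgroup (circles), with 95% counting intervals. The subgroup of PTBP1, HNRNPL and HNRNPLL lies below 0 and the SR genes with a single RRM lie above it, and without PTBP1 and SRSF11 the intervals of both include 0.

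SR genes with a single RRM (SRSF2, SRSF3, SRSF7, SRSF8, SRSF10 and SRSF11) summed to 1011 counts with and 765 without the reporter. Their pooled log2 ratio was 0.16 (0.02 to 0.30), but -0.01 (-0.17 to 0.15) without SRSF11. SRSF3, the smallest SR protein and also an export adaptor, had 165 and 157 counts (-0.17, -0.50 to 0.15). SRSF7, its close paralogue, had 229 and 186 (0.06, -0.23 to 0.34). SRSF10, which turns into a general splicing repressor when it is dephosphorylated after heat shock or in mitosis, had 244 and 190 (0.12, -0.16 to 0.40). These 3 genes lay within counting error of the coding median. SRSF2, a nuclear SR protein that does not shuttle, had 46 and 39 counts. SRSF8, a copy related to SRSF2, had 7 and 14.

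SR genes with a pair of RRMs (SRSF1, SRSF4, SRSF5, SRSF6 and SRSF9) summed to 207 and 208 counts, a log2 ratio of -0.25 (-0.54 to 0.03). SRSF5 was the only one with at least 100 counts, with 89 in both libraries (-0.24, -0.68 to 0.20). SRSF4 had 41 and 52 counts, SRSF9 had 47 and 41, and SRSF6 had 16 and 20. SRSF1, the founding member that promotes use of proximal splice sites, had only 14 and 6 counts. No SR gene of this type had an interval clear of the coding median.

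The 15 members under 100 counts had summed counts of 17 to 97, with 9 hnRNP and 6 SR genes among them. For 1 of them, HNRNPH2, the interval lay above the coding median and the ratio was over 2-fold. For 1 other, HNRNPF, it lay below, with an upper bound of -0.011. The HNRNPF interval included 0 under the 4 other centrings given further below. The share of coding genes called at such low counts was not computed, so these calls have no background beside them. The other members under 100 counts could not be told from the coding median at this depth. HNRNPA3 had 29 counts with and 17 without the reporter, HNRNPLL had 14 and 4, HNRNPUL2 had 11 and 6, and SYNCRIP had 14 and 6.

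Low counts went along with a second gene row on the same strand. HNRNPH2, HNRNPL, HNRNPUL2, SYNCRIP, SRSF1 and SRSF6 are each overlapped on their own strand by another protein-coding row, such as the readthrough rows RPL36A-HNRNPH2 and HNRNPUL2-BSCL2. All of these overlapping rows had 0 counts in both libraries. None of the 6 members reached 100 counts, and their median summed count was 28. Of the 29 members without such a row, 20 reached it, with a median of 178. Among all coding genes with a count, 4.68% of 1473 overlapped genes and 7.90% of 12544 others had at least 100 counts. The sources used here do not say how reads matching both rows were counted, and the part of these rows in the low counts was not tested.

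Other genes of the splicing regulatory network were taken from lists. Of 24 SR-related proteins, 14 had at least 100 counts; the interval of 5 lay above the coding median, against 17.8% of coding genes, and that of 1 below, against 16.1%. Summed over the list, counts were 2221 with and 1712 without the reporter, a pooled log2 ratio of 0.13 (0.04 to 0.22). Among the 14 with at least 100 counts, THRAP3, an RS-rich mRNA-binding protein, was highest with 82 counts against 30 (1.21, 0.59 to 1.86). RBM39, a partner of U2AF2 that is degraded by aryl sulfonamides, was lowest of the 14 with 161 against 232 (-0.77, -1.07 to -0.47). ACIN1, an RS-rich protein of the exon junction complex periphery, was also over 2-fold higher, with 132 against 55 and a log2 ratio of 1.02. The list's median was 0.07 and its SD 0.54, against 0.46 over the 1060 coding genes.

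Of 9 kinases of SR proteins, 3 had at least 100 counts. The interval of 0 lay above the coding median and that of 1 below, against 17.8% and 16.1% of coding genes. SRPK1, the cytoplasmic kinase, was at 0.27 (-0.26 to 0.82), and the nuclear kinase CLK1 was at -0.56 (-1.10 to -0.02), with 54 counts against 67. Summed over the list, the 3 import receptors of the families had a ratio below the coding median. Transportin TNPO1, which carries HNRNPA1, had 36 and 50 counts, TNPO2 had 146 and 152, and TNPO3, which carries SR proteins, had 26 and 36. Together they were at -0.44 (-0.71 to -0.16). Only TNPO2 reached 100 counts, at -0.30 with an interval that included the coding median.

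Of 35 further RNA-binding proteins that associate with hnRNPs, 17 had at least 100 counts, with a median of 0.00045. The interval of 1 lay above the coding median and that of 2 below, against 17.8% and 16.1% of coding genes. SFPQ, a paraspeckle protein, was highest of the 17 at 0.50 (0.23 to 0.78), with 292 counts against 174. YBX1, a cold shock domain protein that packages mRNA, was lowest of the 17 at -0.62 (-0.97 to -0.27), with 122 against 158.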

How the data were processed

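Ribosome footprints were measured in 1 library per group, sequenced as single-end reads of 50 nt per the labels' protocols. The deposited count table held whole-number counts per gene. TopHat2 2.0.12, HTSeq 0.9.1 and the builds GRCh37 and hg19 are named, with no role stated, in the submitters' processing notes. The coordinates of all 35 members nevertheless overlapped their RefSeq GRCh38.p14 loci. RPKM values deposited by the authors equalled counts over listed length and over a library size of 2873483 with the reporter and 2762965 without it; the log2 ratio of these sizes, 0.06, is that of DESeq2 size factors.

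Log2 ratios of counts were centred on their median over coding genes, taking those whose counts summed to 100 or more. Exact intervals at 95% cover counting error. A gene was counted as 2-fold apart with an interval clear of that median. The steps were tested on simulated counts with counting error only. Of 50 genes simulated at 2-fold, 48% were called higher, and of 50 at 0.5-fold, 34% were called lower. At 3-fold and 0.333-fold, 100% were called, and 0% of 860 genes simulated without a change. A gene at 2-fold could thus often be missed. Alternatives used edgeR 4.0.16 TMM and DESeq2 1.42.0 in R 4.3.3, totals, other minimums (50, 200), a fold of 1.5, RPKM with 0.1 added, pseudogene counts and overlapping genes. Python 3.11.15, numpy 2.4.6, scipy 1.17.1 and pandas 2.3.3 were used. All members, and the highest and lowest measured gene of each other list, were named; further genes were named after their values were seen. Members and lists were chosen with earlier results of these data known.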

Additional observations from a re-analysis of the deposited data

Results flagged for a closer look

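Some rows outside the 35 members held counts at their loci or under their names, where a count of 0 would be the absence of signal. An unnamed lncRNA row on the strand of HNRNPL had 41 counts with and 33 without the reporter, close to the 52 and 45 of HNRNPL itself. PCBP1-AS1, a lncRNA on the opposite strand of PCBP1, had 31 and 39, more than the 25 and 17 of PCBP1. The sources used here do not say whether counting used the strand, so reads of this pair cannot be told apart. Pseudogene rows named for HNRNPA1 had 29 and 23.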

How the results depend on the processing

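The centring decided most of the counts. Under edgeR TMM, DESeq2 size factors, total counts and summed coding counts, the coding median itself lay at 0.11, 0.19, 0.57 and 0.07. The pooled hnRNP ratio was 0.061, 0.14, 0.52 and 0.024, and the pooled SR ratio was 0.19, 0.27, 0.65 and 0.15. The SR interval left out 0 under all 4, at 0.07 to 0.31 under edgeR TMM and 0.03 to 0.28 under summed coding counts. The hnRNP interval left out 0 only under DESeq2 size factors and total counts. Under total counts the medians were 0.39 (hnRNP) and 0.62 (SR), and 2 members were at least 2-fold higher. HNRNPC changed sign to 0.20 there, with an interval that included 0 (-0.13 to 0.53). Its interval included 0 under each of the 4 centrings. Intervals above 0 numbered 4, 6, 12 and 4 under those 4 centrings, and intervals below 0 numbered 1, 1, 0 and 1. The shares of coding genes called under those centrings were not computed. These counts, and that of the 2-fold members under total counts, thus have no background beside them. At 1.5-fold, 2 members were higher and 1 lower, and the share of coding genes at that fold was not computed either. With members left out whose locus contains a small RNA gene, PTBP1 among them, 1 interval lay below. Count minimums, pseudogene counts and leaving out small RNA loci kept both pooled family ratios within their intervals. With RPKM, run for the family medians and not for pooled ratios, the medians were -0.17 (hnRNP) and 0.06 (SR). The SR median was -0.00058 at a minimum of 50. The hnRNP minus SR difference was -0.02 without the most counted gene of each family and -0.23 between medians. Leaving out members overlapped on their strand, added after seeing the data, kept the pooled ratios and their difference within their intervals. No paired analysis was possible because each group had 1 library. Depth limits the 15 members under 100 counts.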

Other observations

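Of 18 tissue-regulated splicing factors, only RBM10 reached 100 counts, with 50 with the reporter and 59 without it. Summed over the 18, counts were 249 and 253, a pooled log2 ratio of -0.27 (-0.53 to -0.009). RBFOX2 had 14 and 23 counts, QKI had 54 and 44, and CELF1 had 46 and 37. ESRP1, an epithelial splicing factor, had 0 in both. Of the SR protein kinases under 100 counts, 2 had intervals clear of the coding median on opposite sides. DYRK1A had 42 counts against 17 (1.06, 0.22 to 1.97), and PRPF4B had 30 against 54 (-1.09, -1.79 to -0.42). They were chosen after their values were seen, and the share of coding genes called at such low counts was not computed.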
